A study of Mus musculus with 12 samples.

Results

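Ia neurons, the type I spiral ganglion neurons (SGNs) that have the most calretinin (*Calb2*), were described before birth, at embryonic stage E18.5, and after it, at postnatal day 3 (P3), in cells of the mouse cochlea sequenced singly by Smart-seq2. A cell was counted as Ia-scored by its expression of 5 genes: *Amigo2*, *Cpne4*, *Kcns3*, *Igsf21* and *Fgf1*. Wells were kept where over 1000 genes were detected and ERCC spike-ins took under 5% of the reads. L, the natural log of 1 plus the counts per 10000, was computed for each cell, and a cell was a neuron where its mean L of *Nefl*, *Nefm*, *Stmn2*, *Stmn3* and *Ina* was above 1 and above that of the hair cell genes *Calml4*, *Lhx3* and *S100a1*. Within each stage L was turned into z-scores over the neurons. A neuron was Ia-scored where the mean z of the 5 markers was above 0.3 and higher than that of 3 competing sets of 5 genes each, called here the Ib, Ic and II sets. The rule chose 277 of the 1187 neurons of the 4 plates at these stages (4226 cells were kept over all 12 plates of the series). The same rule gave 238 Ib-scored, 226 Ic-scored and 135 II-scored neurons, and 311 neurons had no score above the minimum.

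All mice of the 4 plates at these stages carried PVcre;Ai14, in which Cre driven from the parvalbumin gene turns on the red reporter tdTomato, with no other treatment. Cells of several animals were pooled for a preparation, so each plate of 384 wells is 1 sample and cells are not replicates. There were 2 plates at each stage, and all cells of a stage came from plates of 1 naming series, so that stage and plate series cannot be told apart. The labels do not say that the plates of a stage came from separate animals, and p-values therefore measure only the spread between plates, which may be technical.

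SGNs carry sound information from the hair cells to the brain. Type I neurons each contact an inner hair cell and are divided into Ia, Ib and Ic, which differ in their calcium-binding proteins, spontaneous firing and place of contact on the hair cell. Type II neurons contact outer hair cells. Around birth these neurons lose embryonic growth programmes and gain the ion channels and release machinery of fast synapses, while Schwann cells and satellite glia wrap them.

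Ia-scored cells made up 71 of 341 neurons in E18.5 plate 1, which was 20.8% (exact 95% binomial interval 16.6 to 25.5), and 73 of 345 in E18.5 plate 2 (21.2%, 16.97 to 25.9). At P3 they were 113 of 376 neurons in plate 1 (30.1%, 25.5 to 34.96) and 20 of 125 in plate 2 (16%, 10.1 to 23.6). The intervals of the P3 plates did not overlap, so no direction between the stages was read from these shares. The intervals cover counting error only. Members had a median of 334260, 463242, 859956 and 1068871 counts in E18.5 plates 1 and 2 and P3 plates 1 and 2, and a median of 9049 to 9535 detected genes, close to the 8851 to 9396 of the other scored neurons. Their summed counts were 23153454, 32496089, 89951344 and 22748841, at which 3 counts correspond to 0.130, 0.0923, 0.0334 and 0.132 CPM, counts scaled to a library of 1000000 counts.

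The marker score of the members ran from 0.30 to 2.20 at E18.5 and from 0.30 to 2.23 at P3, with medians of 0.73 and 1.09. The highest score among neurons that ranked highest in the Ia set but were left out was 0.29 at E18.5 and 0.25 at P3. Near the minimum, 14 E18.5 members and 5 P3 members lay at or under 0.4, and 11 and 2 neurons were left out with scores above 0.2. Of the 277 members, 94 also scored above 0.3 in the II set, 27 in the Ic set and 10 in the Ib set. The median II score of the members was 0.18, against -0.24 for the Ic set and -0.48 for the Ib set. Members and neurons outside therefore form a range at E18.5 rather than separate groups, as the plot of marker scores shows.

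**Figure D1:**
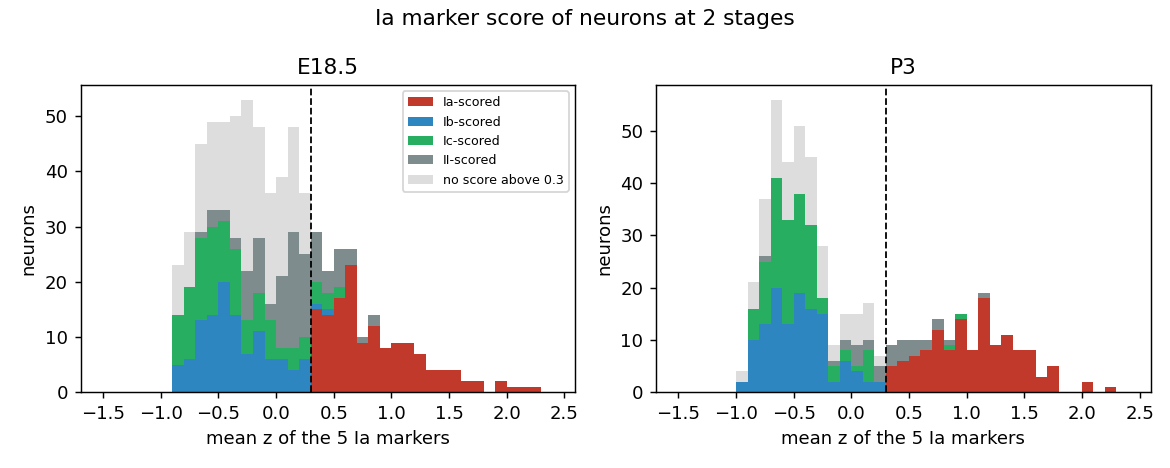
Number of neurons (vertical axis) by the mean z-score of the 5 Ia markers (horizontal axis) at E18.5 and at P3. Colours give the class by the rule, the dashed line marks the minimum of 0.3, and the members have a median score of 0.73 at E18.5 and 1.09 at P3.

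All 5 markers were protein-coding genes of different function. *Amigo2* (chromosome 15, 97244125 to 97247287, minus strand, GRCm38, the assembly also named mm10) codes for a leucine-rich repeat adhesion protein. *Cpne4* (chromosome 9, 104547286 to 105034544, plus strand) codes for a copine, which binds membranes when calcium rises. *Kcns3* (chromosome 12, 11090202 to 11151056, minus strand) codes for a potassium channel subunit that is silent alone and modifies other subunits. *Igsf21* (chromosome 4, 140026846 to 140246784, minus strand) codes for an immunoglobulin family adhesion protein, and *Fgf1* for a secreted growth factor. The bases before the start site of 4 of these genes are shown from RefSeq (GRCm38.p6), since these genes chose the members. The RefSeq start used is not the outermost GENCODE start of *Cpne4* or *Kcns3*: the window of *Cpne4* lies inside the span given above, and that of *Kcns3* mostly so. They are given 5′ to 3′ on the strand of the gene, for the first start listed, with capitals at every match on either strand to a RUNX core (TGTGGT), a POU4F core (ATTAAT) or an E-box (CANNTG), the letters bound by factors of the RUNX, POU4 and basic helix-loop-helix families.
Amigo2, chr15:97247288-97247537, minus strand: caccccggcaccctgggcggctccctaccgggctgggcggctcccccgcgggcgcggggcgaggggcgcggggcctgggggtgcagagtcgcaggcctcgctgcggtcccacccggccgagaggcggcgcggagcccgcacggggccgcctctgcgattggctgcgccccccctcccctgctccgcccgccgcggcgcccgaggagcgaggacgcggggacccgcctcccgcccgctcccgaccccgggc
Cpne4, chr9:104569405-104569654, plus strand: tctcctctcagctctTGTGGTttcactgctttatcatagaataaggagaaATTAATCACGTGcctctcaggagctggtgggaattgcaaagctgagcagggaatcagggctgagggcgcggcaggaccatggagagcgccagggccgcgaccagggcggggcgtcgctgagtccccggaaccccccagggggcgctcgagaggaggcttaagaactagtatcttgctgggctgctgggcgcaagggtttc
Kcns3, chr12:11150843-11151092, minus strand: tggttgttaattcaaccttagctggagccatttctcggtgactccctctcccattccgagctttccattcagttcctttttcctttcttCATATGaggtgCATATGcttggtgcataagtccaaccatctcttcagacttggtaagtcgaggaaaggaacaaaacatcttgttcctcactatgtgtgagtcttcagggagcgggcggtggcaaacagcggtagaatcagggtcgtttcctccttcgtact
Igsf21, chr4:140246812-140247061, minus strand: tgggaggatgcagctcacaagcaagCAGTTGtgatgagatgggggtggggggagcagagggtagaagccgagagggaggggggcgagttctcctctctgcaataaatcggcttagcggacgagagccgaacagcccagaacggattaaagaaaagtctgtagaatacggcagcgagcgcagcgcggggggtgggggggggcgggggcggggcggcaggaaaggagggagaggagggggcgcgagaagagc
*Cpne4* held 1 match to each of the 3 motifs, and in it the POU4F core lay directly before the E-box. *Kcns3* held 2 E-boxes and *Igsf21* 1, and none of the 3 motifs was found in the *Amigo2* window. Among 27025 promoters of the same 250 bases, 14.2% held the RUNX core, 4.52% the POU4F core and 66.0% an E-box.

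The levels of the markers are a description, because these values chose the cells, and so are all levels of one class against another below. *Amigo2* stood at 87.8 and 81.5 CPM in the Ia-scored cells of E18.5 plates 1 and 2 and at 80.3 and 51.7 CPM in P3 plates 1 and 2. *Cpne4* stood at 345, 333, 404 and 388 CPM and *Kcns3* at 20.9, 20.3, 48.0 and 62.8 CPM. At P3 *Igsf21* reached 149 and 157 CPM and *Fgf1* 229 and 264 CPM, from 74.5 and 54.4 and from 62.4 and 62.0 CPM at E18.5. Levels are not scaled to gene length, and genes are therefore not ranked by level.

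Most members had reads of most markers. All 5 were detected in 11 of 71, 12 of 73, 60 of 113 and 13 of 20 members in the order of plates above, and 4 of 5 in a further 42, 42, 52 and 6. *Cpne4* was found in every member and *Kcns3* in the fewest (27, 24, 80 and 17). Over all neurons of a plate the 10 pairs of markers had a median Pearson r of L of 0.21 and 0.098 at E18.5 and of 0.43 and 0.42 at P3, a description over cells that share depth.

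When a marker was left out of the score, the cells chosen on the other 4 still had more of it than the other scored cells in every plate. The ratio of CPM was 4.64, 2.55, 5.85 and 20.7 for *Amigo2*, 3.08, 1.92, 7.66 and 11.5 for *Kcns3*, and 2.49, 1.98, 3.80 and 4.65 for *Cpne4*. It was lower at E18.5 for *Igsf21* (1.70 and 1.29, against 4.25 and 5.21 at P3) and for *Fgf1* (1.30 and 1.41, against 2.88 and 2.88). The E18.5 ratios of *Igsf21* and *Fgf1* were thus the smallest of the 20. The marker left out had itself been picked for the rule. Most cells chosen without it were members, such as 62 of 71 for *Amigo2* in E18.5 plate 1. An excess was therefore likely beforehand, and these ratios are a description.

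Markers of other cells were read in the members too, as CPM without the scaling between libraries that the gene levels have. The 10 pan-neuronal genes were all above 10 CPM in every plate. The 12 glial markers summed to 3254 and 3862 CPM at E18.5 and to 5051 and 6891 CPM at P3 in the members, and to 4496, 4038, 4566 and 5180 CPM in the other scored cells; 12, 12, 9 and 10 of the 12 were above 10 CPM in the members and none was at 0. The 10 otic mesenchyme markers summed to 484, 482, 178 and 149 CPM and the 10 hair cell markers to 242, 265, 159 and 124 CPM. *Atoh1*, *Pou4f3*, *Gfi1*, *Otof* and *Xirp2* were at 0 in the members of both P3 plates. The 9 blood and vessel markers summed to at most 1.94 CPM, with the globin genes *Hba-a1*, *Hba-a2* and *Hbb-bs* at 0 in all 4 plates.

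*Calb2*, which is outside the rule, was highest in the Ia-scored cells of every plate. It stood at 1088 and 1253 CPM in E18.5 plates 1 and 2 and at 4774 and 4933 CPM in P3 plates 1 and 2. In the same plates Ib-scored cells had 247, 401, 1277 and 1314 CPM, Ic-scored cells 189, 210, 650 and 383 CPM, and II-scored cells 424, 451 and 1405 CPM (4 II-scored cells of P3 plate 2 were too few to sum). In this gene the label Ia matched the data. *Calb1* (calbindin), which is known for Ib neurons, was 14.9, 24.1, 50.8 and 75.9 CPM in the members against 108, 155, 752 and 679 CPM in Ib-scored cells. Ic-scored cells had 114, 95.2, 473 and 375 CPM of it. *Pou4f1* and *Lypd1*, a transcription factor and a membrane protein known for Ic neurons, were at most 19.9 and 17.3 CPM in the members, while Ic-scored cells had 222 to 299 CPM and 179 to 299 CPM. Ib-scored cells had 127 to 180 CPM of *Pou4f1* and 163 to 207 CPM of *Lypd1*. *Calb1*, *Pou4f1* and *Lypd1* were thus lower in the members than in both Ib- and Ic-scored cells. Of genes known for type II neurons, *Prph* stood at 365, 377, 184 and 88.1 CPM in the members and at 489, 481 and 509 CPM in II-scored cells. Ib- and Ic-scored cells had 63.3 to 112 CPM of it at E18.5 and 0.91 to 16.1 CPM at P3. *Gata3* was 379, 328, 214 and 222 CPM in the members and 689, 665 and 560 CPM in II-scored cells. *Plk5* was at most 4.26 CPM in the members and 23.6 to 365 CPM in II-scored cells.

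Of 16346 genes compared outside the rule, 15 had a log2 ratio above 1 to the mean of the other classes in all 4 plates (0.0918% of the genes) and 69 a ratio below -1 (0.422%), with 0.5 CPM added to each level. Nothing is read from these counts, since the same cells were chosen on their markers. In P3 plate 2 the mean of the others holds no II-scored cells, so ratios there run against Ib- and Ic-scored cells alone. Against Ib- and Ic-scored cells alone in every plate, the counts were 75 and 93 genes.

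Among genes of at least 20 CPM, the 12 with the highest smallest ratio over plates were *Calb2*, *Nell1*, *Cdh9*, *Tmprss3*, *Rxrg*, *Lmo1*, *Igfbpl1*, *Palm2*, *Prrx2*, *Dok5*, *Cntn5* and *Id2*. The retinoid X receptor *Rxrg* stood at 106, 104, 84.4 and 80.7 CPM in the members and at 84.0, 81.6 and 50.9 CPM in II-scored cells, whereas Ib- and Ic-scored cells had 22.4 to 36.9 CPM at E18.5 and 0 to 5.45 CPM at P3. The cadherin *Cdh9* had log2 ratios of 1.56, 1.45, 1.28 and 1.61, and its level in the members was 50.8, 55.4, 152 and 205 CPM. *Tmprss3*, a serine protease whose loss causes deafness, had ratios of 1.50, 1.23, 1.51 and 3.07. II-scored cells had 36.4, 40.0 and 57.8 CPM of it, against 60.5, 57.9 and 68.6 CPM in the members of the same plates. *Igfbpl1*, *Palm2* and *Prrx2* were also higher in II-scored than in Ib- and Ic-scored cells in every plate that had a II-scored sum. *Nell1* codes for a secreted glycoprotein and *Lmo1* for a cofactor of transcription, and their ratios ran from 1.29 to 2.76 and from 0.99 to 1.59. The contactin *Cntn5* had 529.5, 494, 156 and 103 CPM in the members and ratios of 0.85 to 1.16. *Id2*, which holds back basic helix-loop-helix factors, had ratios of 0.84 to 1.04, and at P3 II-scored cells had 642 CPM, above the 596 and 459 CPM of the members.

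The 8 genes with the lowest ratios were *Lypd1*, *D130009I18Rik*, *Pou4f1*, *Slc17a6*, *Sema3a*, *Calb1*, *Prr15* and *Pld5*. The vesicular glutamate transporter *Slc17a6* stood at 43.1, 46.9, 76.2 and 133.3 CPM in the members, against 244 to 762 CPM in Ib-scored and 386 to 930 CPM in Ic-scored cells. II-scored cells lay between, at 91.1, 69.7 and 344 CPM. The repulsive guidance ligand *Sema3a* had ratios of -2.84, -2.51, -2.15 and -1.99. *Runx1*, a transcription factor outside that list of 8, was 63.7, 73.5, 26.8 and 25.8 CPM in the members and 244 to 350 CPM in Ib- and Ic-scored cells. For *Pou4f1*, *Lypd1* and *Runx1* the II-scored cells were low too, at 11.5 to 12.4 CPM, 8.09 to 16.3 CPM and 26.8 to 60.7 CPM. Both classes are set against the same Ib- and Ic-scored cells here, and no test was run.

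**Figure D2:**
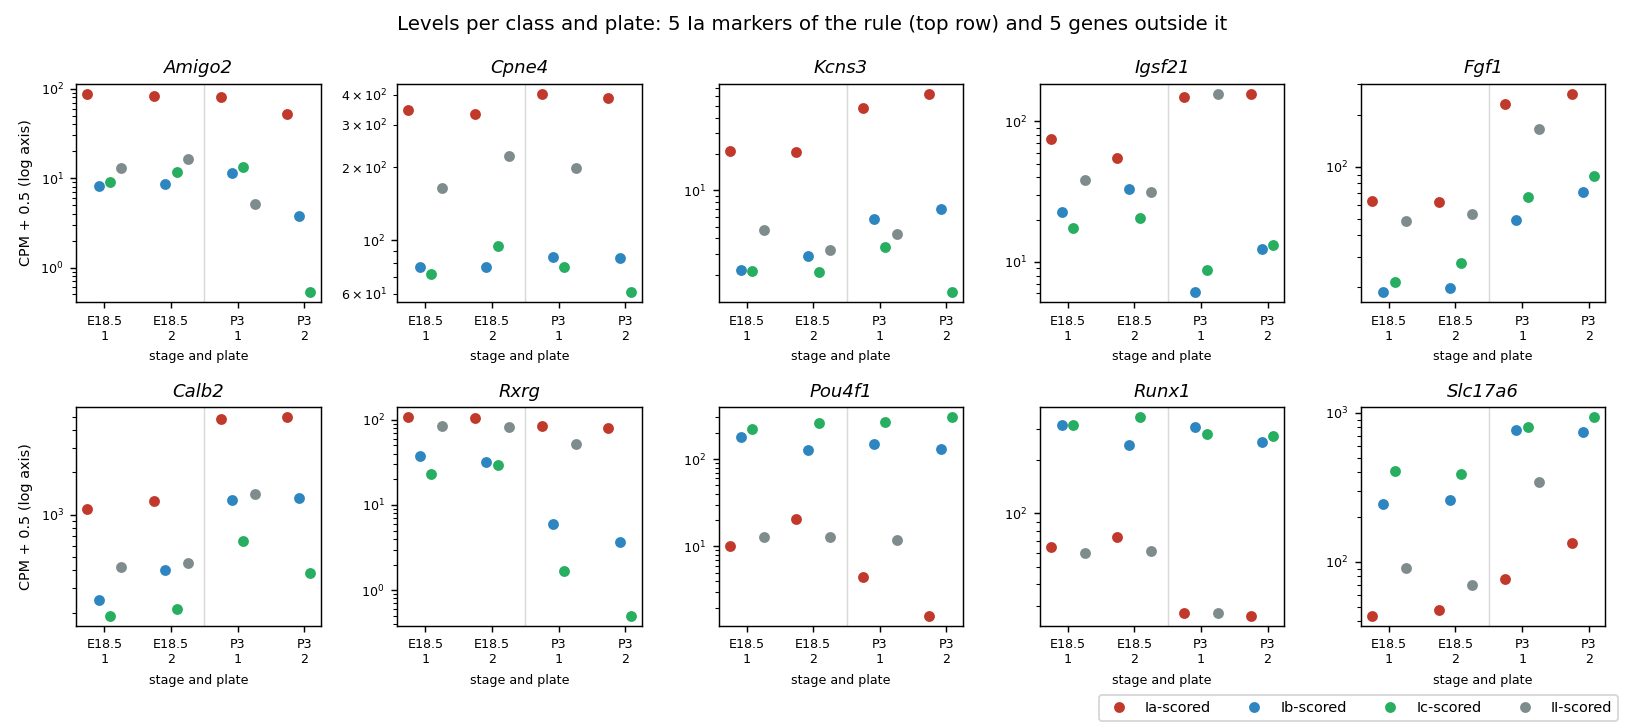
Levels (CPM plus 0.5, log axis, 1 point per class and plate) by stage and plate of the 5 markers that chose the Ia-scored cells, above, and of *Calb2*, *Rxrg*, *Pou4f1*, *Runx1* and *Slc17a6*, below. The red points of *Calb2* are the highest in all 4 plates (1088 to 4933 CPM), and those of *Slc17a6* the lowest (43.1 to 133.3 CPM).

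The RUNX core was found within the 250 bases before the start in 2 of the 11 genes above 1 in all plates that had a RefSeq promoter, and in 2 of the 50 such genes below -1 (4.00%). The POU4F core was found in 1 of 11 and 5 of 50, and an E-box in 8 of 11 and 30 of 50. These are matches of letters in a short window.

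Over the 876 scored cells, the genes outside the rule whose L followed the Ia marker score most closely were *Necab1*, *Rxrg*, *Dok5*, *Klhdc2* and *Tuba4a*, with a mean over plates of the within-plate Pearson r of 0.64, 0.63, 0.62, 0.62 and 0.61. *Necab1* codes for a neuronal calcium-binding protein and *Tuba4a* for an alpha-tubulin. The genes that ran against the score most closely were *Lypd1*, *Runx1*, *Ntng1*, *Slc17a6* and *Cdk14*, with r of -0.73, -0.70, -0.70, -0.69 and -0.65. Genes that followed the score were not always highest in the members. In II-scored cells *Necab1* had 164, 179 and 681 CPM, against 123, 131 and 255 CPM in the members of the same plates, and *Dok5* had 60.1, 66.1 and 74.1 CPM against 64.9, 56.2 and 61.2 CPM. The cells share plates and depth, and no test was run.

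Between E18.5 and P3 the Ia-scored cells gained myelin transcripts and more genes of vesicle release and calcium binding than they lost. They lost more guidance genes and more sodium and calcium channel genes than they gained, though *Scn4b* and *Scn1a* rose. The comparison asks what changes in Ia neurons around birth. With edgeR's quasi-likelihood test, 4596 of 14354 genes outside the rule passed an adjusted p of 0.05, which was 32.0%. Of these 2463 were higher at P3 (17.2%) and 2133 lower (14.9%), and 1127 rose and 1256 fell by more than 1 on the log2 scale. The median change of all genes was -0.04. Without E18.5 plate 1 the count was 1482, without E18.5 plate 2 it was 1787, without P3 plate 1 7946 and without P3 plate 2 7159. Stage cannot be told apart from the plate series.

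The 12 greatest rises among genes of at least 50 CPM were mostly genes of myelinating glia. *Mbp*, myelin basic protein, stood at 124 and 156 CPM in the E18.5 plates and at 2262 and 3424 CPM in the P3 plates, a log2 change of 4.39 (SE 0.22, adjusted p = 2.2e-04). *Pmp22*, a membrane protein of peripheral myelin, went from 132.5 and 166.1 to 3083 and 4968 CPM (4.80, SE 0.25). *Pmp2*, a lipid carrier of myelin, had no count at E18.5 and 39.6 and 88.1 CPM at P3, at least 608-fold higher than 3 counts per library. *Cldn19*, *Ugt8a* and *Prx*, a tight junction protein, an enzyme of myelin lipids and a Schwann cell scaffold, rose by 7.44, 4.52 and 4.31. *Mbp* was also high in the other classes at P3, with a mean of 2033, 2288 and 1913 CPM in Ib-, Ic- and II-scored cells. The glial marker sums of the members, given above, were higher at P3 as well, and the part of glial RNA in these rises was not tested. Without the neurons whose glial markers were in the highest 20% of their plate, 3340 genes passed.

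Other rises were those of *Mme* (7.61, SE 0.56), the peptidase neprilysin, *Omg* (7.06, SE 0.42), a protein of myelin and neuron surfaces, *Ogn* (6.21), a matrix proteoglycan, *Thy1* (5.72), a surface protein of mature neurons, and *Hapln1* (5.68), which links hyaluronan to proteoglycans. *Thy1* stood at 2.69 and 1.52 CPM at E18.5 and at 113 and 97.2 CPM at P3. *Hapln1* stood at 5.92 and 3.47 CPM and then at 225 and 233 CPM.

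The 12 greatest falls included *Gpc2*, *Postn*, *Top2a*, *Col23a1*, *Pirt*, *Npy*, *Col11a1*, *Fabp7*, *Jup*, *Mex3a* and *Mcam*. *Gpc2*, a glypican of growing axons, went from 51.2 and 49.6 to 2.88 and 0.67 CPM (-4.62, SE 0.57, adjusted p = 0.0023). *Pirt*, a membrane protein of sensory neurons, went from 78.7 and 73.2 to 7.74 and 3.76 CPM (-3.62, SE 0.35). *Fabp7* and *Postn*, both glial markers of the list, fell by 3.06 and 3.91. *Top2a*, an enzyme of dividing cells, was 51.9 and 53.0 CPM at E18.5 and 6.92 and 0 CPM at P3, with an adjusted p of 0.0496, and this call was lost under 8 of 21 alternatives.

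**Figure D3:**
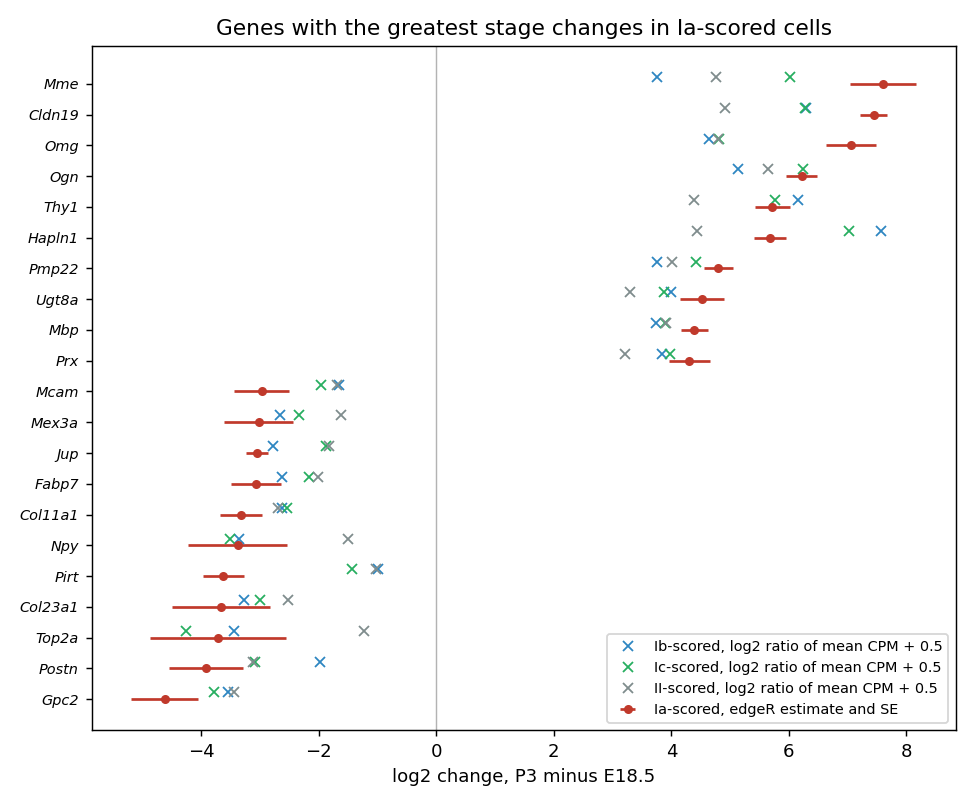
Log2 change from E18.5 to P3 (horizontal axis) of genes with the greatest rises and falls in Ia-scored cells (red, edgeR estimate and SE), with log2 ratios of mean CPM plus 0.5 in the other classes (crosses). The other classes lie on the same side as the Ia-scored cells for every gene drawn.

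Sodium and calcium channel genes changed in 17 of 31 tested members, 6 up and 11 down, a share of 54.8% against 32.0% of all genes, with a median log2 change of -0.76 (-0.04 for all genes). In the lists that follow, each share called is likewise to be read against 32.0%, and rises and falls against 17.2% and 14.9%. *Scn4b*, a sodium channel β-subunit of fast-firing neurons, went from 0.08 and 0.18 to 43.8 and 30.4 CPM (8.13, SE 0.46). *Scn1a*, the pore of Nav1.1, rose by 2.16 (SE 0.14), to 184 and 173 CPM. *Cacna1g*, a T-type calcium channel, was 5.88 and 4.53 CPM at E18.5 and 0.33 and 0 CPM at P3.

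Potassium channel genes changed in 24 of 48 (50%), 13 up and 11 down (median -0.21). The channel-interacting protein *Kcnip1* rose from 21.8 and 18.1 to 147 and 134 CPM (2.87, SE 0.17). *Kcnq5*, *Kcnt2* and *Kcnj6* were at most 5.14 CPM at E18.5 and fell below 0.31 CPM at P3. Receptors for glutamate, GABA and glycine changed in 9 of 35, 4 up and 5 down, a share of 25.7% against 32.0% of all genes. The glycine receptor β-subunit *Glrb* rose by 2.61 (SE 0.13) to 220 and 232 CPM. *Grm5* and *Grm8*, metabotropic glutamate receptors, fell by 5.56 and 3.77, with no more than 16.6 CPM at E18.5 (for *Grm8* the adjusted p was 0.0497, and the call was lost under 9 of 21 alternatives), and *Grm3* had no count at E18.5 and 1.27 and 6.65 CPM at P3.

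Transmitter release genes changed in 25 of 39 (64.1%), 16 up and 9 down (median 0.17). The vesicle protein *Vamp1* went from 66.9 and 73.0 to 647 and 845 CPM (3.46, SE 0.15, adjusted p = 2.2e-04). *Sv2c*, another vesicle protein, rose by 2.90, and the vesicular glutamate transporter *Slc17a7* rose by 2.71, from 55.8 and 48.8 to 306 and 355 CPM. *Slc17a6* rose by 1.26 (SE 0.25, adjusted p = 0.012), and stood at 76.2 and 133.3 CPM at P3. *Unc13b*, a priming factor, fell by 2.17 (SE 0.20).

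Calcium-binding genes changed in 20 of 36 (55.6%), 17 up and 3 down (median 0.27). *Calb2* rose by 2.10 (SE 0.09, adjusted p = 2.2e-04). *Vsnl1*, visinin-like 1, rose by 3.37 to 552 and 653 CPM, *S100b* by 2.86 and parvalbumin (*Pvalb*), whose gene drives the Cre, by 2.34, from 279 and 260 to 1027 and 1620 CPM. Among the other type I and type II genes, *Calb1* rose by 1.74 while *Runx1* fell by 1.33 (SE 0.17, adjusted p = 0.0025), *Pou4f1* by 2.43 and *Prph* (peripherin) by 1.39. In all, 10 of the 18 in that list changed, 3 up and 7 down. *Lypd1* (-0.76, SE 0.46) and *Rxrg* (-0.30, SE 0.13) did not pass.

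Axon guidance genes changed in 34 of 63 (54.0%), 6 up and 28 down (median -0.62). The netrin receptor *Dcc* went from 58.6 and 52.4 to 10.2 and 3.66 CPM (-2.90, SE 0.46). The semaphorins *Sema4a* and *Sema4c* fell by 3.70 and 2.92, and *Sema3d* rose by 2.89, from 5.51 and 8.38 to 37.6 and 62.5 CPM. Cadherins and adhesion genes changed in 26 of 59 (44.1%), 10 up and 16 down (median -0.24). *Tenm2*, *Pcdh9* and *Chl1* fell by 2.84, 2.65 and 2.49, and *Cdh1* (E-cadherin) rose by 5.11 (SE 1.35, adjusted p = 0.029) from 0.73 and 0 to 6.03 and 17.4 CPM. Growth cone and cytoskeleton genes changed in 26 of 39 (66.7%), 12 up and 14 down (median -0.09). *Nefh*, the heavy neurofilament, went from 249 and 226 to 1182 and 1622 CPM (2.61, SE 0.16), and *Dcx* (doublecortin), of migrating and growing neurons, fell by 1.92 from 804 and 864 to 294 and 129 CPM. *Dpysl5*, a collapsin response mediator, fell by 1.35.

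Immediate early genes changed in 10 of 21 (47.6%), and all 10 were lower at P3 (median -1.22). *Egr1*, an activity-induced transcription factor, went from 565 and 613 to 163 and 132.9 CPM (-1.94, SE 0.14), and *Btg2*, *Egr3* and *Junb* fell by 2.47, 2.59 and 1.85. Transcription factors of the ganglion changed in 28 of 71 (39.4%), 8 up and 20 down (median -0.50). *Islr2*, an immunoglobulin-domain membrane protein kept in that list, fell by 2.58 (SE 0.14) from 188 and 183 to 28.2 and 31.7 CPM. *Sox9* and *Onecut3* fell from at most 5.87 CPM. Trophic factor genes changed in 17 of 32 (53.1%), 5 up and 12 down (median -0.38), among them *Igfbp5* (-5.58, from 22.2 and 26.3 to 0.77 and 0 CPM) and *Igfbp2* (2.81, to 48.0 and 99.0 CPM). *Fgf14* fell from 1.06 and 1.02 CPM.

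Neuropeptide genes changed in 6 of 17 (35.3%), 3 up and 3 down (median -0.56), a share near that of all genes. *Tac1*, the precursor of substance P, was 9.51 and 15.6 CPM at E18.5 and 0.02 and 0 CPM at P3, and *Npy* fell by 3.38, while *Sncb*, β-synuclein, rose by 2.33. Pan-neuronal genes changed in 5 of 10 (50%), 2 up and 3 down (median -0.05). The synaptic protein *Snap25* rose by 2.10 to 3575 and 4145 CPM, and the RNA-binding protein *Elavl3* and the growth cone protein *Gap43* fell by 0.80 and 0.75.

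Glial markers changed in 8 of 12 (66.7%), 3 up, *Mbp* among them, and 5 down. Otic mesenchyme markers fell in 4 of 7 (57.1%): *Col1a2* by 0.87, *Col3a1* by 2.61, *Dcn* by 1.96, and *Otor*. Hair cell markers fell in 3 of 6 (50%), where *Myo6* fell by 0.81. *Otor*, *Otof*, *Xirp2* and *Kcnj6* had no count in either P3 plate and at most 1.43 CPM at E18.5, where they were at least 4.90-fold to 13.9-fold higher than 3 counts per library. The single blood and vessel marker tested did not pass. These markers moved with the guidance and early-response genes that fell, and their part in those falls was not tested.

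Some of the calls depended on which plates were in the fit, and most of those lost were lost with either E18.5 plate left out. With an E18.5 plate left out, the spread between plates was taken from the P3 plates alone, and the reverse. That spread, as edgeR's biological coefficient of variation, was 0.448 and 0.442 without E18.5 plates 1 and 2. It was 0.172 and 0.172 without P3 plates 1 and 2. Without E18.5 plate 1, 15 of the named genes no longer passed (adjusted p of 0.093 to 0.40), among them *Cacna1g*, *Fgf14*, *Grm5*, *Grm8*, *Kcnj6*, *Kcnq5*, *Kcnt2*, *Onecut3*, *Otof*, *Otor*, *Sema4c*, *Sox9*, *Top2a* and *Xirp2*. Without E18.5 plate 2, 16 did not pass (0.061 to 0.54), among them the same genes other than *Kcnj6* and *Otor*, which were not tested there, and also *Elavl3*, *Myo6* and *Pou4f1*. *Kcnj6* did not pass without P3 plate 1 (0.093). Most lists also held fewer called members without an E18.5 plate and more without a P3 plate. In the order without E18.5 plate 1 and without E18.5 plate 2, 16 and 19 guidance genes passed (34 with all plates), 14 and 14 cadherin and adhesion genes (26), and 12 and 16 transmitter release genes (25). Calcium-binding genes called were 10 and 12 (20), potassium channels 8 and 9 (24), sodium and calcium channels 10 and 11 (17), and receptors 4 and 4 (9). Of the transcription factors 11 and 13 passed (28), of the trophic factor genes 10 and 10 (17), and of the hair cell markers 1 and none (3). Growth cone genes called were 17 without E18.5 plate 1 (26), and type I and type II genes 6 and pan-neuronal genes 3 without E18.5 plate 2 (10 and 5). Without P3 plate 1 and without P3 plate 2, 50 and 43 transcription factors passed, and without P3 plate 1 43 cadherin and adhesion genes, 32 calcium-binding genes, 16 receptors, 16 type I and type II genes and 12 neuropeptide genes (6). The immediate early genes had 10 calls with either E18.5 plate left out and 14 and 13 with a P3 plate left out, and the glial markers 7 to 9 with any 1 plate left out.

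**Figure D4:**
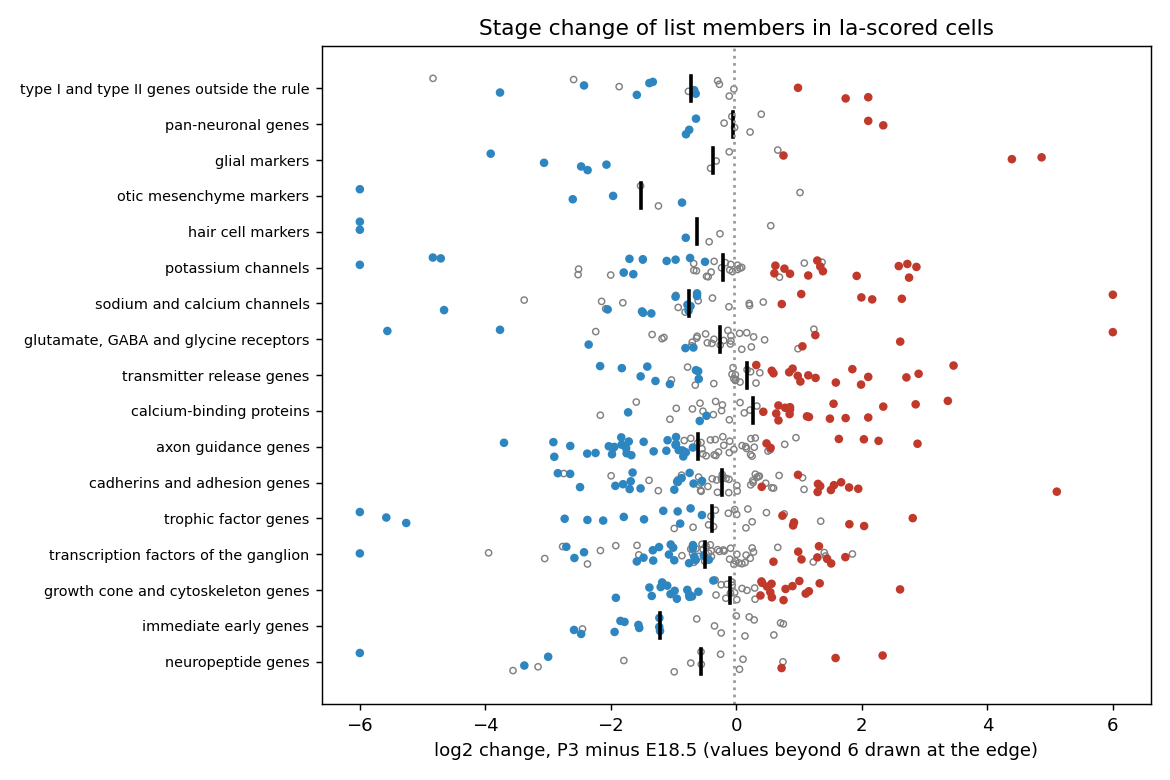
Log2 change from E18.5 to P3 (horizontal axis) of each tested member of 17 gene lists in Ia-scored cells. Filled points passed an adjusted p of 0.05, red for rises and blue for falls, open points did not, black bars are list medians and the dotted line is the median of all genes (-0.04); immediate early genes hold falls alone among their filled points.

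The last comparison asks which of these changes differed from those of the other classes of the same plates. The test took the stage change of the Ia-scored cells minus the mean stage change of the other classes, with the plate as a block. This difference passed for 67 of 16346 genes (0.41%), 26 with a higher stage change in Ia-scored cells (0.159%) and 41 with a lower one (0.251%). At an unadjusted p of 0.05, 1479 genes passed. No gene passed in edgeR with either E18.5 plate left out, where 645 and 744 genes had an unadjusted p under 0.05, so the calls below rest on both of these plates. Without P3 plate 1, 630 genes passed, though *Dis3l*, *Strip2* and *Synpr* did not. Beside them stand the median marker scores of the members (0.73 at E18.5 and 1.09 at P3) and the higher correlations among markers at P3. The part in these values of how clearly the classes were told apart was not tested.

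*Klhdc2*, which picks proteins for degradation, was 220 and 266 CPM in the members at E18.5 and 613 and 522 CPM at P3. It was 103 to 170 CPM in Ib- and Ic-scored cells over both stages and went from 208 and 270 to 541 CPM in II-scored cells. The difference in change was 1.03 (SE 0.10, adjusted p = 0.0046). *Trim36*, a ubiquitin ligase, went from 27.7 and 36.4 to 173 and 238 CPM in the members and from 130 to 192 CPM to 257 to 302 CPM in Ib- and Ic-scored cells (1.51, SE 0.16, adjusted p = 0.0046). The members were thus below those classes at both stages, with a narrower gap at P3. *Ckmt1*, the mitochondrial creatine kinase, went from 73.3 and 91.6 to 404 and 492 CPM in the members (0.91, SE 0.12).

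*Efemp1*, a matrix protein, was 30.6 and 32.1 CPM in the members at E18.5, with means of 34.9, 25.2 and 29.1 CPM in Ib-, Ic- and II-scored cells. It reached 117 and 140 CPM in the members at P3 against means of 55.3, 23.1 and 35.1 CPM in those classes. *Spp1* (osteopontin) went from 4986 and 5334 to 12450 and 13445 CPM (0.44, SE 0.06). *Strip2*, a part of a phosphatase and kinase complex, and *Dis3l*, a ribonuclease of the exosome, had differences of 1.56 and 1.20. *Strip2* went to 86.1 and 74.0 CPM in the members, to 62.2 to 79.2 CPM in Ib- and Ic-scored cells and to 11.6 CPM in II-scored cells. *Grik3*, a kainate receptor subunit, stood at 10.4 to 14.2 CPM in the members at all times while it was at 0 CPM in Ib-scored and at 0.008 CPM in Ic-scored cells of P3, so its fitted difference of 5.58 depends on the prior count. II-scored cells had more than the members, with 17.6 and 17.49 CPM at E18.5 and 71.0 CPM at P3.

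*Cpne6*, a copine of excitatory synapses, was among the genes with a lower stage change. It was 694 and 617 CPM in the members at E18.5, above the 152 to 184 CPM of Ib- and Ic-scored cells. At P3 the members had 556 and 482 CPM and those classes 393 to 459 CPM (-1.29, SE 0.11, adjusted p = 0.0046). *Sez6*, a neuronal surface protein, followed the same course: 197 and 208 CPM in the members against 80.4 to 98.9 CPM, then 390 and 332 CPM against 358 to 396 CPM (-0.97, SE 0.10). In II-scored cells *Cpne6* went from 474 and 483 to 541 CPM and *Sez6* from 137 and 140 to 346 CPM. The synaptic vesicle protein *Synpr* and the calcium sensor of release *Syt1* fell in the members, to 59.5 and 60.2 CPM and to 54.2 and 41.1 CPM. *Synpr* went from 109 and 122 to 357 CPM in II-scored cells, while the mean was 101.1 CPM at both stages in Ib-scored cells and went from 138 to 126 CPM in Ic-scored cells. The only II-scored sum at P3 is that of plate 1, without which *Synpr* did not pass (adjusted p = 0.077). In the other classes *Syt1* was 67.3 to 102 CPM at E18.5 and 93.5 to 146 CPM at P3 (-1.24, SE 0.14, adjusted p = 0.0094).

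*Pirt* (-2.48, SE 0.26), the ryanodine receptor *Ryr3* (-2.59, SE 0.32), the tetraspanin *Tspan2* (-1.29, SE 0.16) and *Slc35f4* (-1.88, SE 0.24) made up the 8. *Tspan2* was 49.9 and 41.7 CPM and then 35.9 and 39.1 CPM in the members, and went from means of 63.8 and 78.3 CPM to 157 and 214 CPM in Ib- and Ic-scored cells. In II-scored cells it was 54.2 and 47.9 CPM and then 58.4 CPM. Of members of the lists, *Pvalb* and *Hpcal1*, the potassium channel *Kcna1*, *Rxrg* and the transcription factor *Ebf1* had a higher stage change in Ia-scored cells. *Islr2*, *Robo2*, *Ntng1* and *Hpca* had a lower one. *Pvalb* rose by slightly more in the members than in the other classes (0.47, SE 0.07, adjusted p = 0.024). *Calb2* (0.41, SE 0.22, adjusted p = 0.62) did not pass, and neither did *Pou4f1* (-2.32, SE 0.46, adjusted p = 0.074) or *Runx1* (-0.89, SE 0.16, adjusted p = 0.051).

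**Figure D5:**
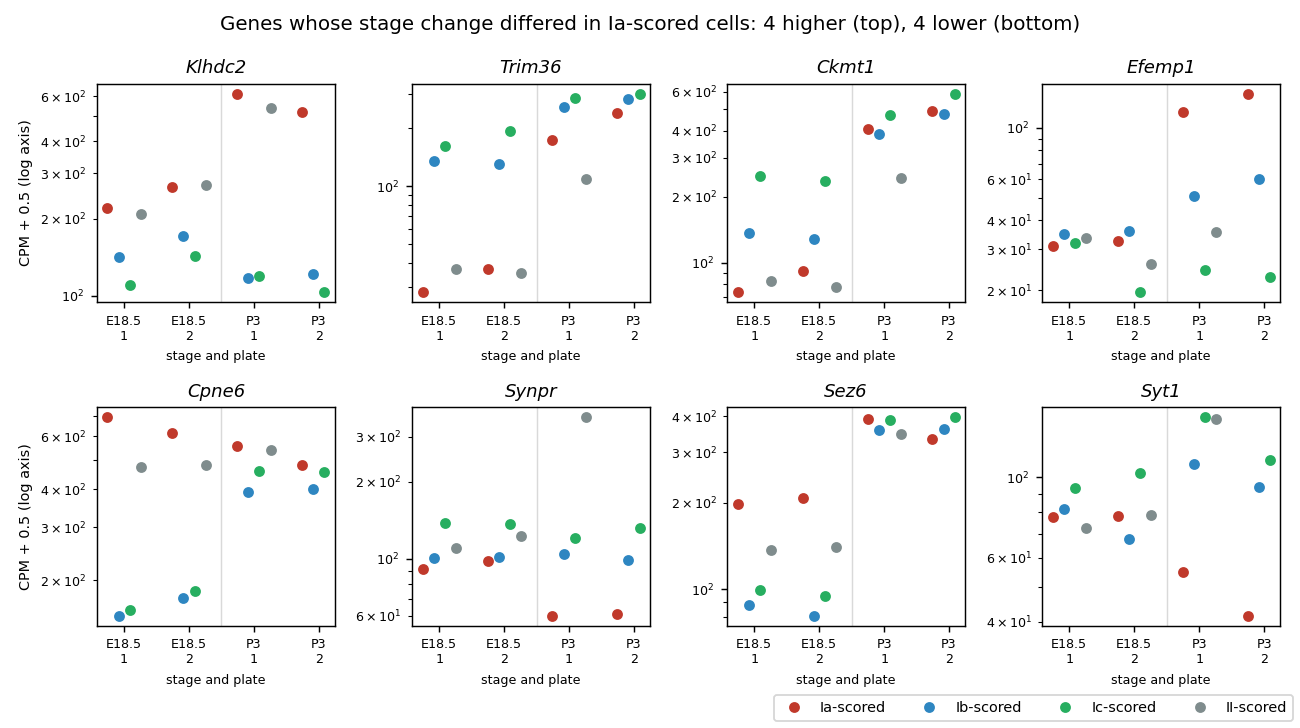
Levels (CPM plus 0.5, log axis, 1 point per class and plate) by stage and plate of 4 genes whose stage change was higher in Ia-scored cells (*Klhdc2*, *Trim36*, *Ckmt1* and *Efemp1*, above) and 4 whose change was lower (*Cpne6*, *Synpr*, *Sez6* and *Syt1*, below). The red points of *Klhdc2* move from 220 and 266 CPM to 613 and 522 CPM, while those of *Cpne6* start above the other classes and end near them.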

How the data were processed

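Single cochlear cells were sequenced by Smart-seq2 in 12 plates of 384 wells. The authors demultiplexed reads by well, aligned them with STAR to mm10 and the ERCC sequences and deposited raw counts per gene and well (24489 genes, no UMIs). Reads were counted with featureCounts, per the methods. The annotation and the strand setting are not given in the sources used here. Wells of 1 further plate in the table (384) belong to no sample and were not used. The authors removed glial genes before their own analysis, which was not done here.

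From the deposited counts, cells were scored as the report gives, and the counts of each class and plate were summed where at least 5 cells were present (15 of 16 sums). Levels are CPM scaled by TMM over the 15 sums, except for summed marker lists, ratios with a marker left out of the score and levels over all neurons of a plate, which are plain CPM. Stage was tested on 4 Ia sums, and the stage-by-class interaction on 15 sums with plate as a block, by edgeR 4.0.16 (filterByExpr, TMM, quasi-likelihood, R 4.3.3) with Benjamini-Hochberg adjustment over all genes tested. The 28 genes of the rule were left out of counts of calls. Fits were run on simulated data with known changes, as a check of the code. The simulated spread was set below that of the real stage and interaction fits (biological coefficients of variation of 0.295 and 0.290). No effect of plate was simulated, so that check says nothing about how stable the calls are. Kept cells summed to 80997594 to 303906928 counts per plate over the series, as given by sample in the report for the members. Doublets were not called, but leaving out the 5% of neurons with the most counts was an alternative. Other alternatives changed the score, the markers, the normalization, the filter, the tool (DESeq2 1.42.0, limma 3.58.1) and the plates. Positions are from GENCODE M21 (GRCm38).

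Members, gene lists and tests were chosen with earlier results of these data known. Named genes followed a rule: markers, the 12 highest and 8 lowest class ratios at 20 CPM or more, the 12 greatest called rises and falls at 50 CPM or more, the 8 lowest interaction p-values on each side, up to 4 called members per list with the greatest change, and 5 genes closest to the marker score. The genes that ran against that score, the list members with an interaction call, and *Runx1*, *Slc17a6*, *Lypd1* and *Rxrg* by stage were added after their values were seen. Some named genes are not reported here.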

Additional observations from a re-analysis of the deposited data

Results flagged for a closer look

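The stage change of Ia-scored cells differed from the mean of the other classes by edgeR's interaction test for these named genes, each with an adjusted p under 0.05, where 67 of 16346 genes passed. The stage change in Ia-scored cells was higher on the log2 scale for *Klhdc2* by 1.03, *Trim36* by 1.51, *Grik3* by 5.58 and *Ckmt1* by 0.91. It was also higher for *Efemp1* by 1.72, *Dis3l* by 1.20, *Spp1* by 0.44 and *Strip2* by 1.56. It was lower for *Cpne6* (-1.29), *Synpr* (-1.16), *Pirt* (-2.48), *Sez6* (-0.97), *Syt1* (-1.24), *Ryr3* (-2.59), *Tspan2* (-1.29) and *Slc35f4* (-1.88). These are differences in change and not in level. All 16 lost the call without E18.5 plate 1 and without E18.5 plate 2.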

How the results depend on the processing

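Each plate is 1 sample, and stage cannot be told apart from the plate series; a lone plate was assumed to vary like the other stage. The share of Ia-scored neurons at E18.5 (21.0%) was 16.8% with a minimum score of 0.5, 26.2% with none, 23.0% without glia-high neurons, 20.7% without the neurons of most counts, and 19.8%, 19.1% and 20.3% without *Amigo2*, *Cpne4* and *Igsf21* in the score. Genes above 1 in every plate (15) were 9 with no minimum and 9 without *Cpne4*, 75 against Ib- and Ic-scored cells alone, an alternative chosen after seeing the data, and 19 to 31 with a plate left out; genes below -1 (69) were 79 to 117 with a plate left out. Stage calls (4596) were 2590 with 20 Ia-scored cells per plate and 1482 to 7946 with a plate left out. Interaction calls (67) were 40 at a minimum of 0.5, 44 with no minimum, 40 without the neurons of most counts, 32 without *Cpne4*, 32 without *Igsf21*, 320 by DESeq2, 115 with no filter, 37 with no replicate block, and 0 to 630 with a plate left out. Without P3 plate 1 no II-scored sum was left at P3 and the class was dropped. The cause of these shifts was not tested. No named gene changed direction under any alternative run. Among 1670 values of named stage genes under alternatives, 87 lost the call, and among 336 of named interaction genes, 63.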

Other observations

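The 5 markers were also read in neurons, chosen by the same neuron genes, of the 8 plates from E14.5 to E17.5, whose cells were not scored. All plates came from PVcre;Ai14 mice but E14.5 plate 2, which came from TrkCcre mice. *Kcns3* was 4.20 CPM in that plate and 0 to 0.39 CPM in the other 7, 6.40 and 6.998 CPM in the E18.5 plates and 11.6 and 15.9 CPM in the P3 plates. *Fgf1* was 1.65 to 21.4 CPM, then 36.0 and 38.6 CPM and 97.7 and 107.5 CPM. *Cpne4* was 29.5 to 133.1 CPM before E18.5 and 126 to 182 CPM in the 4 later plates. *Igsf21* had its highest level at E14.5, at 59.96 and 82.9 CPM, and *Amigo2* its highest at E16.5, at 52.1 and 48.7 CPM in plates 1 and 2 against 11.3 CPM in plate 3. *Calb2* was at most 5.55 CPM up to E16.5, 86.8 CPM at E17.5, 570 and 655 CPM at E18.5 and 1451 and 2024 CPM at P3. These are levels over all neurons of a plate, in which the share of each class is not known before E18.5, and no test was run.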
